A study of Oryctolagus cuniculus with 24 samples.

Results

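The genes described here make up a module of ribosome biogenesis and nucleolar genes in rabbit peripheral blood mononuclear cells (PBMCs). The membership rule uses gene names and no measured value: a non-control probe belonged to the module where its gene symbol started with NOP, NOL, UTP, RRP or POLR1 followed by a digit or a letter, or was BOP1, RRS1, FBL, NCL, NPM1, DKC1, GAR1, NHP2, PES1 or WDR12. This gave 32 genes, measured by 64 probes, of the 28890 genes measured, 9550 of them with a symbol. Shares of all genes below are over the 28890, so they include many units known only by another identifier. Of the 53 symbols in the RefSeq gene table that fit these names, 21 had no probe named for them and were not analysed here, among them BOP1, FBL, GAR1 and NHP2. No filter on low signals was set, so all 32 genes entered the tests reported here, while 30 were left in the alternative without dim probes.

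Ribosomes are built in the nucleolus, where RNA polymerase I transcribes the precursor of most ribosomal RNA (rRNA). Small nucleolar ribonucleoproteins (snoRNPs) guide chemical changes of the precursor, the small subunit processome folds and cleaves it, and further assembly factors mature the large subunit before both subunits are exported. In resting lymphocytes this pathway runs at a low rate, and mitogens are known to raise it before cell division.

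PBMCs came from 4 New Zealand White rabbits, all adult females and here called by their numbers (1, 2, 4 and 5), and were purified on a ficoll gradient and cultured in RPMI medium. Each animal gave 6 cultures, which received LPS at 1 µg/mL, PMA at 10 ng/mL with ionomycin at 1 µg/mL (PMA-Ionomycin), or buffer only (mock-stimulated), and which were collected after 4 h (T4) or 24 h (T24). LPS is a bacterial cell wall component sensed mainly by monocytes, whereas PMA with ionomycin activates protein kinase C and calcium signalling in lymphocytes without the antigen receptor. The RNA of each culture was labelled with 1 dye and hybridised to 1 array, so that there were 6 groups of 4 samples and 24 arrays.

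A level is the log2 median signal of a probe minus the median of its array, averaged over the probes of a gene, and FC denotes the fold change between groups from limma, with p-values adjusted by the Benjamini-Hochberg method over all 28890 genes and SE for the standard error of a log2 FC. A gene was called where the adjusted p was under 0.05. Levels of different genes are not compared, since each probe binds with its own strength. The share of spots well above background was 51.4% to 62.3% per array, and was lowest on the arrays of LPS T4 rabbit 4 (51.4%) and PMA-Ionomycin T4 rabbit 2 (52.6%). Between 29 and 32 members were well above background on each array. NOL4 was well above background on at most 1 array of a group, NOL4L on none of the PMA-Ionomycin or mock T4 arrays, and POLR1A on 2 of 4 LPS T4 arrays, while the other 29 members were well above background on all 24. As these are bulk samples, fewer cells of a type and less RNA per cell cannot be told apart.

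The members were read by probes of 60 bases. Those of 6 members on which the results below turn are shown, because they include subunits of 1 enzyme that moved in opposite directions and genes that changed more at one time than at the other. Sequences are the probe letters in the deposited scanner files, with the position that these files give on oryCun2 and its strand.
POLR1C (chr12:32967840-32968046, plus strand): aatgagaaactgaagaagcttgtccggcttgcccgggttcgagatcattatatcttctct
POLR1H (chr12:22055708-22055767, plus strand): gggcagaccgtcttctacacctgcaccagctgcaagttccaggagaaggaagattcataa
POLR1A (chr2:100325525-100325836, plus strand): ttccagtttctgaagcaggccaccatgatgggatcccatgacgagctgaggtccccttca
NOP58 (chr7:143048909-143049306, plus strand): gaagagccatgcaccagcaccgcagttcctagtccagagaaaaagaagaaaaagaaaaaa
NPM1 (chr3:52626214-52626519, plus strand): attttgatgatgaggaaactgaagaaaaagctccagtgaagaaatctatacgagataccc
RRP9 (chr9:19067017-19067646, minus strand): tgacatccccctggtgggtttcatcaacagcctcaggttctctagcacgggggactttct

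The positions of the POLR1C, POLR1A, NOP58, NPM1 and RRP9 probes run over 207, 312, 398, 306 and 630 bases of the genome, more than the 60 bases of the probe, as for a probe that lies across a splice junction. The POLR1H probe covers 60 contiguous bases. Of the 64 member probes, 60 had a position and 17 of these spanned more than 60 bases. No gene annotation of this build was used here. The DKC1 probe is placed at chr8:39040663-39040722, an autosome, while the RefSeq table has DKC1 on the X chromosome, so that the copy it measured is uncertain.

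After PMA-Ionomycin, nearly the whole module was higher at both times. At T4, 28 of 32 members were called higher and 1 lower, beside 13.4% of all genes called higher and 9.35% called lower. At T24, 27 members were called higher and 0 lower, beside 22.1% and 11.5% of all genes. The median log2 FC of the 32 members was 1.51 at T4 (from -0.45 to 2.77) and 1.42 at T24 (from -0.26 to 2.62), where the median of all genes was 0.046 and 0.031. The median at T24 was 0.89 under quantile normalisation and 0.87 with normexp background correction before it, with 26 or more members called in both. An FC of at least 2 was reached by 23 of the members called higher at each time, beside 5.76% of all genes at T4 and 11.3% at T24, and of at least 4 by 11 at T4 and 8 at T24, beside 1.2% and 2.76%.

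The 28 members called higher at T4 were higher in 4 of 4 rabbits. The levels of the PMA-Ionomycin and mock groups did not overlap for 26 members at T4 and 26 at T24, beside 21.4% and 32.2% of all genes. The members called higher at both times numbered 26, beside 7.99% of all genes. The median difference of the module within a rabbit was 1.39, 1.21, 1.72 and 1.81 at T4 for rabbits 1, 2, 4 and 5, and 1.71, 1.32, 1.50 and 1.31 at T24. All 6 groups lay on each of the 3 slides of 8 arrays, and within a slide the median difference was 1.42 to 1.81 at T4 and 1.32 to 1.51 at T24. All 29 calls at T4 and all 27 at T24 had the same sign on each slide. Within a slide the PMA-Ionomycin and mock cultures came from different rabbits, and these are the same arrays that gave the calls.

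**Figure D1:**
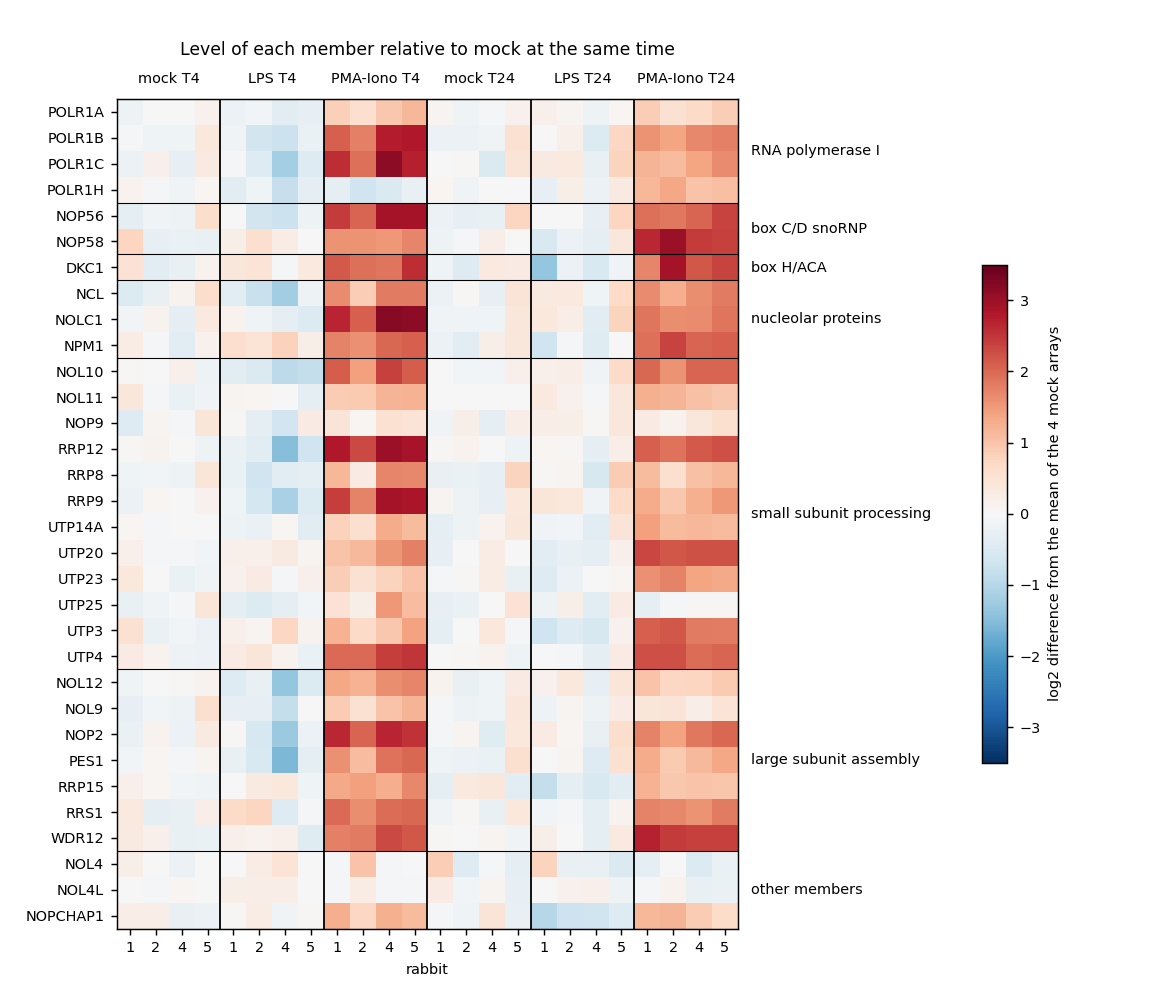
Each row is a member, grouped by role, and each column a culture, in the order of rabbits 1, 2, 4 and 5 within a group. Colour gives the log2 difference from the mean of the 4 mock arrays of the same time. The PMA-Ionomycin columns are red for most members at T4 and T24, whereas the LPS columns are mixed and paler, with rabbit 4 at T4 the bluest of them for several members, among them PES1 and RRP12. NOL4 is pale on most arrays, with rabbit 2 after PMA-Ionomycin at T4 and rabbit 1 in mock and LPS at T24 above the rest.

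Markers of several cell types were called in the same comparison. Among all genes, 13.4% were called higher and 9.35% lower at T4, and 22.1% and 11.5% at T24. Of 11 monocyte markers measured, 0 were called higher and 4 lower at T4 and 0 higher and 9 lower at T24 after PMA-Ionomycin, and their summed level (log2 of the summed signals relative to the array median) was 7.71 to 8.80 in mock and 6.40 to 7.19 in PMA-Ionomycin cultures at T4, against 9.13 to 10.23 and 6.58 to 7.28 at T24. CLEC7A and VCAN were well above background on 0 of 4 PMA-Ionomycin arrays at T24. Of 9 T cell markers, 1 was called higher and 0 lower at T4 and 1 higher and 3 lower at T24, with summed levels of 4.43 to 5.09 (mock) and 4.27 to 5.03 at T4 and of 3.87 to 4.38 and 3.99 to 4.28 at T24, and CD4 was well above background on 0 arrays of each group. Of 6 B cell markers, 1 was called higher and 3 lower at each time, with summed levels of 8.34 to 9.33 and 6.67 to 7.47 at T4 and of 7.56 to 9.74 and 7.28 to 8.23 at T24. Platelet markers were lower at T4 for 5 of 6 and higher at T24 for 2 of 6, and of 7 neutrophil markers 2 were lower at T4 and 5 at T24. Both of the 2 NK cell markers were higher at T24 and 1 was lower at T4, and 1 of 5 erythrocyte markers was lower at T24. The part of these cell types in the rise of the module was not tested.

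Cell cycle genes differed between the times. At T4, 0 of 17 were called higher and 7 lower (median log2 FC -0.36), beside 13.4% and 9.35% of all genes. MKI67, a marker of dividing cells, had -1.25 (adjusted p = 0.00227). At T24 all 17 were called higher (median 3.05), beside 22.1% of all genes, and MKI67 was higher by 3.66 (adjusted p = 6.04e-10). Their part in the values of the module was not tested at either time.

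**Figure D2:**
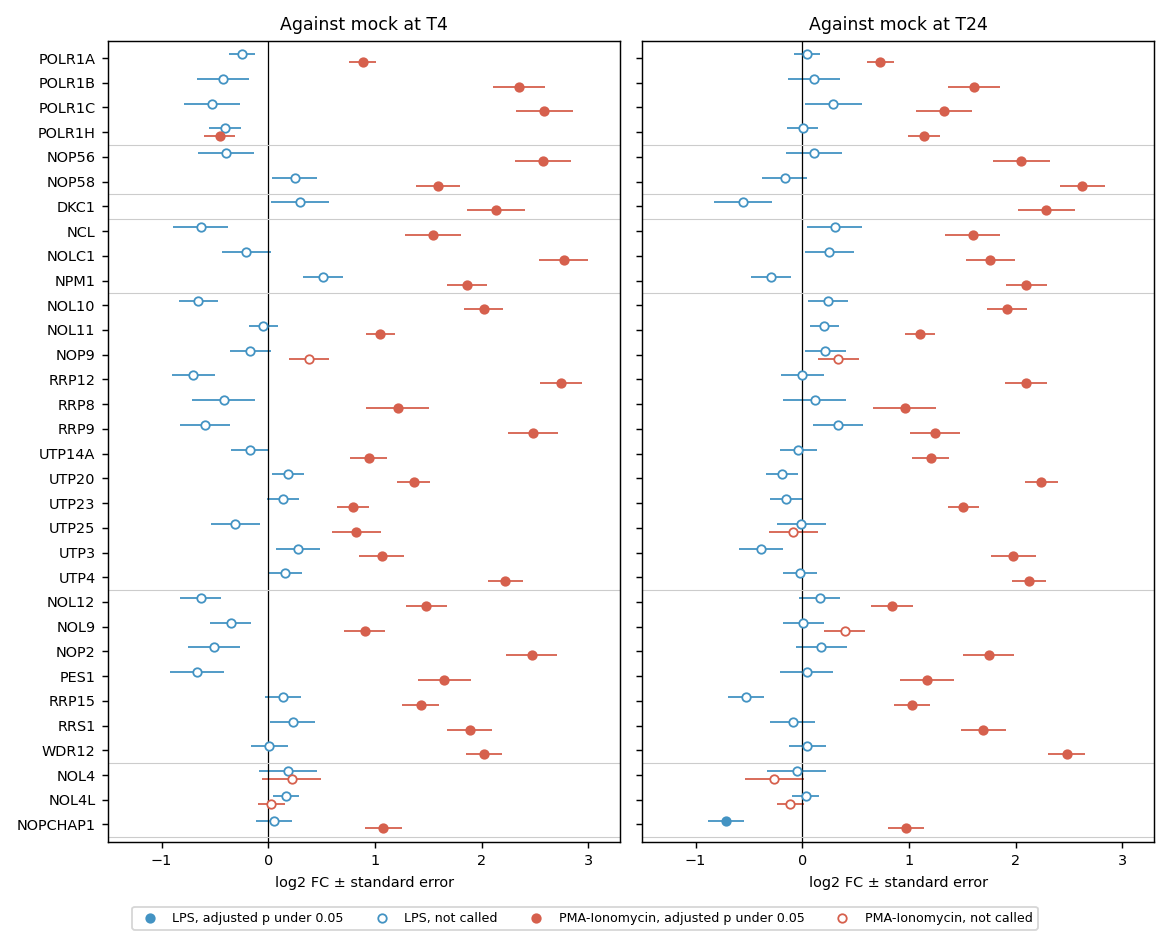
Points give the log2 FC of each member after LPS (blue) or PMA-Ionomycin (red) against mock at T4 (left) and T24 (right), with the limma standard error. Filled points passed the adjusted p of 0.05. PMA-Ionomycin values lie to the right of LPS values for all members other than POLR1H and NOL4L at T4 and NOL4, NOL4L and UTP25 at T24, and the only filled LPS point is NOPCHAP1 at T24.

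RNA polymerase I was represented by 4 of its subunits, and the core subunits rose at both times. POLR1A and POLR1B, which form the catalytic centre, rose 1.85-fold and 5.08-fold at T4, POLR1C, an assembly subunit shared with RNA polymerase III, rose 6.01-fold, and POLR1H, a small subunit involved in transcript cleavage, fell 1.37-fold. At T24 all 4 were called higher, beside 22.1% of all genes.

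POLR1C (chr12:32967840-32968046) had levels of 5.95, 5.30, 6.52 and 6.10 after PMA-Ionomycin at T4 in rabbits 1, 2, 4 and 5 (the order used throughout), and of 3.17, 3.56, 3.08 and 3.70 in mock-stimulated cultures. At T24 the levels were 4.21, 4.12, 4.40 and 4.69 after PMA-Ionomycin and 3.05, 3.06, 2.51 and 3.48 in mock. Every stimulated culture lay above every mock culture at both times, and rabbit 2 was the lowest of the stimulated ones. The fit gave a log2 FC of 2.59 (SE 0.27, limma adjusted p = 1.06e-07) at T4 and 1.33 (SE 0.27, limma adjusted p = 0.000286) at T24.

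POLR1B (chr2:97372733-97372792) followed the same order of groups, with 4.44, 4.10, 5.09 and 5.16 against 2.28, 2.20, 2.20 and 2.73 at T4 and 3.84, 3.63, 3.95 and 4.03 against 2.06, 2.06, 2.12 and 2.77 at T24. The groups did not overlap at either time, and mock rabbit 5 was above the other 3 mock cultures at both. The fit put its rise at 2.35 (SE 0.24, limma adjusted p = 1.3e-07) at T4 and 1.61 (SE 0.24, limma adjusted p = 1.06e-05) at T24. The POLR1A probe (chr2:100325525-100325836) was dim, with 0.78, 0.54, 0.88 and 1.10 after PMA-Ionomycin and -0.25, -0.051, -0.038 and 0.10 in mock at T4, groups that still did not overlap. Its log2 FC was 0.88 (SE 0.12, limma adjusted p = 8.14e-06) at T4 and 0.73 (SE 0.12, limma adjusted p = 4.36e-05) at T24, the latter not called with the processed signal.

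POLR1H (chr12:22055708-22055767) went the other way at T4. Its levels were 4.38, 4.01, 4.19 and 4.44 after PMA-Ionomycin, 4.35, 4.57, 3.91 and 4.40 after LPS and 4.82, 4.64, 4.59 and 4.79 in mock. All 4 PMA-Ionomycin cultures were below the lowest mock culture, with a log2 FC of -0.45 (SE 0.15, limma adjusted p = 0.0259), and this call was lost when any 1 rabbit was left out, and without the 2 arrays of the lowest share of spots well above background. At T24 the levels were 5.88, 6.07, 5.73 and 5.79 after PMA-Ionomycin against 4.80, 4.60, 4.75 and 4.75 in mock. Here the stimulated cultures lay above all mock cultures, by 1.14 (SE 0.15, limma adjusted p = 9.92e-07). From T4 to T24 the log2 FC shifted by 1.59 (SE 0.21, limma adjusted p = 3.48e-06), positive in 4 of 4 rabbits.

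**Figure D3:**
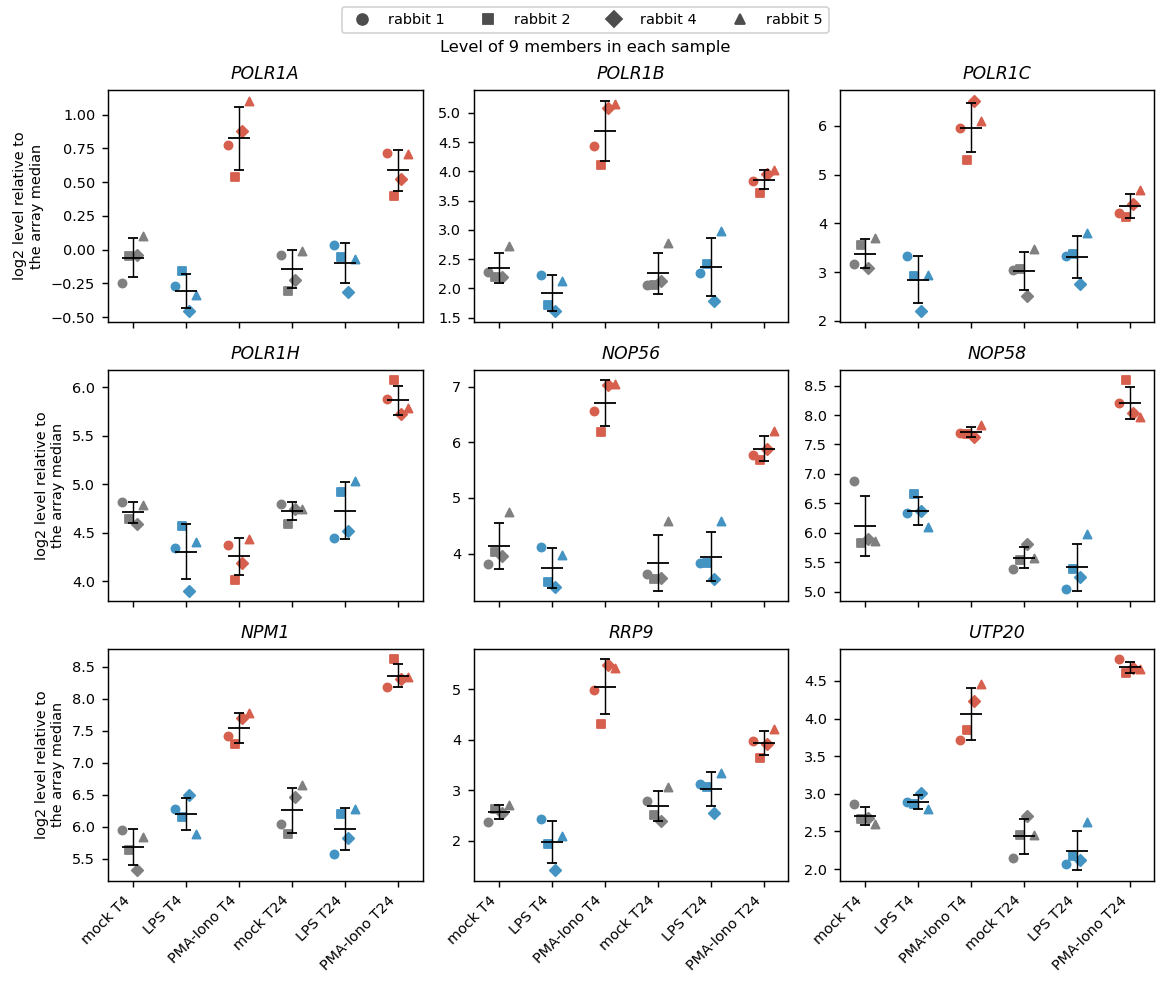
Each symbol is 1 culture, its shape the rabbit, its height the log2 level relative to the array median, and the bars give the mean ± SD of 4 rabbits in each of the 6 groups. POLR1H is lowest in the T4 stimulated groups and highest after PMA-Ionomycin at T24, while POLR1C and RRP9 are highest after PMA-Ionomycin at T4 and NOP58 and UTP20 at T24.

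The transcripts of the snoRNP proteins rose at both times. NOP56 and NOP58 are the paired core proteins of box C/D snoRNPs, which guide methylation of rRNA, and DKC1 is the pseudouridine synthase of box H/ACA snoRNPs. NOP56 rose 5.95-fold at T4 and 4.15-fold at T24, NOP58 3.01-fold and 6.16-fold, and DKC1 4.39-fold and 4.88-fold. The copy that the DKC1 probe measured is uncertain, as given above.

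NOP56 (chr4:9686671-9686730) had levels of 6.57, 6.18, 7.03 and 7.04 after PMA-Ionomycin and 3.81, 4.02, 3.96 and 4.75 in mock at T4. At T24 they were 5.78, 5.69, 5.89 and 6.21 and 3.64, 3.54, 3.57 and 4.59. The groups did not overlap, although mock rabbit 5 was above the other mock cultures at each time. NOP56 had a log2 FC of 2.57 (SE 0.26, limma adjusted p = 1.11e-07) at T4 and 2.05 (SE 0.26, limma adjusted p = 1.06e-06) at T24, and its change between times was not significant (adjusted p = 0.419).

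NOP58 (chr7:143048909-143049306) had levels of 7.70, 7.68, 7.62 and 7.82 after PMA-Ionomycin and 6.88, 5.83, 5.89 and 5.86 in mock at T4. Mock rabbit 1 was above the other mock cultures, and the stimulated cultures still lay above it. At T24 the levels were 8.21, 8.59, 8.04 and 7.97 and 5.39, 5.54, 5.82 and 5.57. The log2 FC was 1.59 (SE 0.21, limma adjusted p = 3.72e-06) at T4 and 2.62 (SE 0.21, limma adjusted p = 6.97e-10) at T24. The change of 1.03 (SE 0.30, limma adjusted p = 0.0128) between times was positive in 4 of 4 rabbits, by 0.44 to 1.99. Part of it lay in the mock cultures, whose log2 FC from T4 to T24 was -0.535 (limma adjusted p = 0.111). The call of a change was lost under quantile normalisation, with normexp, with the processed signal and without rabbit 1 or 2.

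For DKC1 the levels were 7.38, 7.16, 7.10 and 7.80 against 5.74, 4.83, 4.98 and 5.36 in mock at T4, and 7.02, 8.21, 7.49 and 7.66 against 5.15, 4.85, 5.64 and 5.59 at T24. Its groups were apart at both times, with log2 FC of 2.13 (SE 0.27, limma adjusted p = 2.08e-06) and 2.29 (SE 0.27, limma adjusted p = 2.99e-07). NOPCHAP1 (chr4:91332116-91332175), a chaperone that takes part in the assembly of NOP58 into snoRNPs, was called higher too. It had 4.50, 3.96, 4.49 and 4.34 against 3.47, 3.47, 2.99 and 3.04 at T4, a log2 FC of 1.08 (SE 0.17, limma adjusted p = 3.89e-05), and 0.97 (adjusted p = 7.03e-05) at T24.

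NOLC1, NPM1 and NCL, abundant proteins of the nucleolus, were all called higher at both times. NOLC1 (Nopp140), which binds snoRNPs and RNA polymerase I, rose 6.82-fold at T4, the largest log2 FC of the module at that time, and 3.39-fold at T24. NPM1 (nucleophosmin), a histone and ribosome chaperone, rose 3.63-fold and 4.29-fold, and NCL (nucleolin), which binds the rRNA precursor, 2.92-fold and 3.02-fold.

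NOLC1 was measured by 5 probes shifted by at most 5 bases, and had levels of 5.97, 5.38, 6.50 and 6.43 after PMA-Ionomycin and 3.19, 3.42, 2.96 and 3.63 in mock at T4. At T24 they were 5.01, 4.78, 4.80 and 5.01 and 3.01, 3.03, 2.98 and 3.54. The stimulated levels at T4 were all above those at T24, and all mock levels were lower than both. For NOLC1 this came to a log2 FC of 2.77 (SE 0.23, limma adjusted p = 4.56e-09) at T4 and 1.76 (SE 0.23, limma adjusted p = 1.33e-06) at T24, and the change between times was -1.01 (SE 0.33, limma adjusted p = 0.0267), negative in 4 of 4 rabbits.

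NPM1 (chr3:52626214-52626519) had 7.42, 7.29, 7.70 and 7.77 against 5.95, 5.63, 5.32 and 5.83 in mock at T4 and 8.18, 8.61, 8.31 and 8.34 against 6.04, 5.89, 6.46 and 6.65 at T24. Its groups did not overlap at either time, with log2 FC of 1.86 (SE 0.19, limma adjusted p = 8.75e-08) and 2.10 (SE 0.19, limma adjusted p = 4.03e-09). For NCL (chr7:172930584-172930643) the means were 5.26 ± 0.46 (SD, n = 4 rabbits) and 3.71 ± 0.48 at T4 and 4.89 ± 0.23 and 3.29 ± 0.34 at T24. Both of its differences were called, at 1.55 (SE 0.26, limma adjusted p = 7.83e-05) and 1.60 (SE 0.26, limma adjusted p = 2.67e-05).

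The small subunit processing group held 12 members. At T4, 11 were called higher and 0 lower (median log2 FC 1.14), beside 13.4% and 9.35% of all genes. At T24, 10 were called higher and 0 lower (median 1.38), beside 22.1% and 11.5%. At T4 the 3 largest log2 FC were those of RRP12, an export factor of the small subunit, with 6.69-fold at T4 and 4.27-fold at T24, RRP9, the protein partner of the U3 snoRNA, with 5.58-fold and 2.37-fold, and UTP4, a subunit of the first processome complex to bind the precursor, with 4.67-fold and 4.37-fold.

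RRP12 had levels of 6.44, 5.97, 6.63 and 6.52 after PMA-Ionomycin against 3.70, 3.78, 3.65 and 3.46 in mock at T4, and of 5.45, 5.26, 5.50 and 5.63 against 3.40, 3.50, 3.39 and 3.18 at T24. Its mock cultures lay within a narrow range at each time, far below every stimulated culture. The log2 FC was 2.74 (SE 0.20, limma adjusted p = 5.7e-10) at T4 and 2.09 (SE 0.20, limma adjusted p = 9.61e-09) at T24. RRP9 (chr9:19067017-19067646) had 4.98, 4.30, 5.47 and 5.42 against 2.37, 2.63, 2.56 and 2.70 at T4 and 3.97, 3.64, 3.92 and 4.20 against 2.79, 2.51, 2.39 and 3.06 at T24. The stimulated levels of RRP9 were lower at T24 than at T4 in every rabbit, and its log2 FC moved from 2.48 (SE 0.23, limma adjusted p = 2.91e-08) to 1.25 (SE 0.23, limma adjusted p = 0.00014), a change of -1.23 (SE 0.33, limma adjusted p = 0.00752).

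UTP4, read by 5 overlapping probes, had 6.06, 6.06, 6.48 and 6.57 against 4.36, 4.18, 3.89 and 3.85 at T4 and 6.44, 6.44, 6.14 and 6.21 against 4.20, 4.21, 4.32 and 4.00 at T24. Its groups were apart at both times, by 2.22 (SE 0.16, limma adjusted p = 5.69e-10) and 2.13 (SE 0.16, limma adjusted p = 2.66e-10), and the interval of its change between times was -0.57 to 0.37 (95%). UTP20, a large scaffold protein of the processome, had 3.71, 3.85, 4.24 and 4.46 against 2.87, 2.67, 2.67 and 2.60 at T4 and 4.79, 4.61, 4.67 and 4.66 against 2.14, 2.45, 2.71 and 2.45 at T24. Its stimulated cultures were higher at T24 than at T4 in every rabbit. UTP20 rose by a log2 FC of 1.36 (SE 0.15, limma adjusted p = 3.28e-07) at T4 and 2.24 (SE 0.15, limma adjusted p = 4.8e-11) at T24, a change of 0.88 (SE 0.21, limma adjusted p = 0.00346).

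UTP3 and UTP23, further processome factors, were called higher at both times. UTP3 had a log2 FC of 1.06 (SE 0.21, limma adjusted p = 0.000405) at T4 and 1.98 (SE 0.21, limma adjusted p = 4.89e-08) at T24, and UTP23 had 0.79 (SE 0.15, limma adjusted p = 0.000269) and 1.51 (SE 0.15, limma adjusted p = 1.86e-08). Mean UTP3 levels at T4 and T24 were 6.78 and 7.16 after PMA-Ionomycin and 5.71 and 5.18 in mock, so the mock level fell as well. The changes between times were 0.92 (SE 0.29, limma adjusted p = 0.0253) for UTP3 and 0.72 (SE 0.21, limma adjusted p = 0.0146) for UTP23. Both calls of a change were lost under quantile normalisation, with the processed signal and without rabbit 1 or 2. UTP25 went the opposite way, with levels of 0.86, 0.56, 1.87 and 1.45 against 0.11, 0.24, 0.32 and 0.78 in mock at T4 and of 0.10, 0.37, 0.48 and 0.50 against 0.16, 0.22, 0.46 and 0.95 at T24. Its groups overlapped at both times. UTP25 had a log2 FC of 0.82 (SE 0.23, limma adjusted p = 0.00984) at T4, a call that a fit to the compared arrays alone and one without rabbit 4 did not give, and -0.084 (SE 0.23, limma adjusted p = 0.878) at T24, and the change was -0.91 (SE 0.32, limma adjusted p = 0.0473).

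Of the other members of this group, NOL10, NOL11 and UTP14A rose at both times, NOL10 by 2.02 and 1.92, NOL11 by 1.05 and 1.10 and UTP14A by 0.94 and 1.20 (log2 FC, adjusted p from 1.22e-08 to 0.000221). RRP8, counted here although it is known to methylate large subunit rRNA, had 1.21 (SE 0.30, limma adjusted p = 0.00333) and 0.96 (SE 0.30, limma adjusted p = 0.0133), and lost both calls without rabbit 4 (at T24 also without rabbit 1, under quantile normalisation, with normexp and with the processed signal). NOP9, which binds the small subunit precursor, was not called at either time, with 0.38 (95% interval -0.015 to 0.78) at T4 and 0.34 (-0.058 to 0.74) at T24.

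All 7 large subunit assembly members were called higher at T4 (median log2 FC 1.65) and 6 at T24 (median 1.17), beside 13.4% and 22.1% of all genes. PES1 and WDR12 are partners in the PeBoW complex, which is needed to process large subunit rRNA, and the remaining partner BOP1 was not analysed here. PES1 rose 3.14-fold at T4 and 2.25-fold at T24, and WDR12 4.07-fold and 5.57-fold.

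WDR12, with 3 probes, had levels of 4.50, 4.56, 5.06 and 4.91 after PMA-Ionomycin against 3.04, 2.91, 2.48 and 2.49 in mock at T4. At T24 they were 5.30, 5.04, 4.99 and 5.00 against 2.66, 2.58, 2.71 and 2.48. The lowest stimulated culture was above the highest mock culture at both times, with log2 FC of 2.02 (SE 0.17, limma adjusted p = 5.58e-09) and 2.48 (SE 0.17, limma adjusted p = 6.65e-11). PES1 (chr21:3139935-3139994) had 5.84, 5.33, 6.14 and 6.25 against 4.14, 4.30, 4.17 and 4.34 at T4 and 5.16, 4.78, 4.99 and 5.21 against 3.72, 3.67, 3.64 and 4.42 at T24, again without overlap, and log2 FC of 1.65 (SE 0.25, limma adjusted p = 2.49e-05) and 1.17 (SE 0.25, limma adjusted p = 0.000647).

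NOP2, a methyltransferase of large subunit rRNA, rose 5.54-fold at T4, with 4.47, 3.89, 4.51 and 4.38 against 1.61, 1.95, 1.64 and 2.16, and 3.35-fold at T24. RRS1, which joins a small ribonucleoprotein with its own rRNA to the precursor, rose 3.71-fold at T4, with 3.10, 2.73, 3.07 and 3.13 against 1.45, 0.81, 0.86 and 1.34, and 3.24-fold at T24. In both genes the groups were apart, with adjusted p of 4.9e-08 and 3.36e-07 at T4 and of 2.82e-06 and 6.11e-07 at T24. NOL12, which takes part in the trimming of the precursor, and RRP15 rose by 1.48 and 1.43 at T4 and by 0.84 and 1.03 at T24 (log2 FC).

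NOL9, a kinase that acts on the ends of cleaved rRNA, was called at T4 alone, with 1.98, 1.63, 2.08 and 2.28 against 0.79, 1.00, 0.91 and 1.65 and a log2 FC of 0.91 (SE 0.19, limma adjusted p = 0.000981). Mock rabbit 5 overlapped the stimulated group. At T24 the log2 FC was 0.40 (SE 0.19, limma adjusted p = 0.132), and it was called there with the rabbit as a block (adjusted p = 0.0291, beside 23.3% of all genes called higher in that fit). Its change between times was not significant (adjusted p = 0.223).

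NOL4 and NOL4L carry nucleolar names but are not known as ribosome biogenesis factors. NOL4 had -1.07, -0.044, -1.11 and -1.02 after PMA-Ionomycin against -0.83, -1.03, -1.23 and -1.03 in mock at T4. The groups overlapped, with the PMA-Ionomycin culture of rabbit 2 above all others, and its probe was well above background on 1 and 0 of these arrays. NOL4L had -0.65, -0.34, -0.67 and -0.68 against -0.63, -0.69, -0.55 and -0.59 at T4, with 0 of these arrays well above background, and was well above background on 3 of 4 mock and 3 of 4 LPS arrays at T24 but 0 PMA-Ionomycin ones. Neither was called in any comparison, with adjusted p of 0.729 and 0.943 at T4 and 0.583 and 0.615 at T24 after PMA-Ionomycin. The 95% interval of the log2 FC at T24 was -0.83 to 0.31 for NOL4 and -0.37 to 0.15 for NOL4L, from signals near background.

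Whether the response to PMA-Ionomycin differed between the times was tested as the interaction of stimulation and time. It was positive (a larger log2 FC at T24) for 5 members, POLR1H, NOP58, UTP3, UTP20 and UTP23, and negative for 4, POLR1C, RRP9, NOLC1 and UTP25, beside 14.4% and 8.14% of all genes, so that the members' counts lay near the background. The change ran from -1.26 for POLR1C to 1.59 for POLR1H. The log2 FC was larger at T4 for 21 members and larger at T24 for 11, but 23 members did not pass the test of that difference. The call of POLR1H alone was made under every alternative. Without rabbit 1 it was the 1 call left, and without rabbit 2 the calls of NOP58, UTP3 and UTP23 were lost, as they were under quantile normalisation and with the processed signal, which also lost UTP20. NOP58 and UTP3 were lost with normexp too, and UTP25 when the compared arrays were fitted alone. NOLC1 and UTP25 lost theirs without rabbit 4 or rabbit 5 and with the slide as a block, and with the rabbit as a block POLR1B was called too, as negative (adjusted p = 0.0398), beside 10.1% of all genes.

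**Figure D4:**
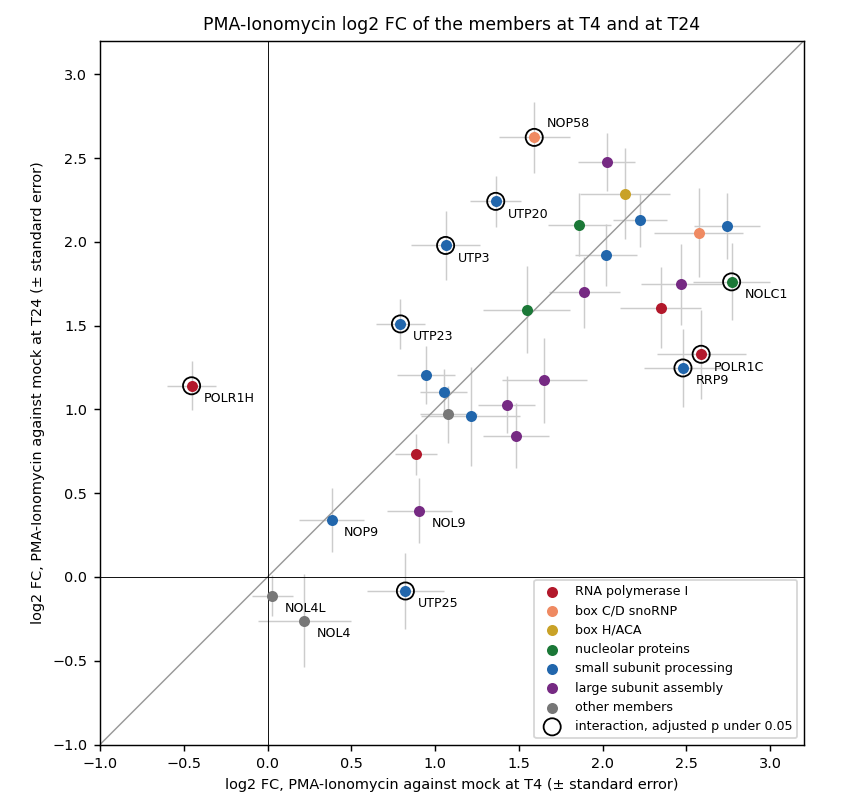
Each point is a member, coloured by role, with its log2 FC after PMA-Ionomycin against mock at T4 (horizontal) and T24 (vertical), the standard errors, and the line of equal log2 FC. Circled members passed the interaction test. POLR1H is left of zero at T4 and above zero at T24.

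After LPS, few members differed from mock beyond the error. At T4, 0 of 32 members were called higher and 0 lower by limma, beside 0.0554% and 0.969% of all genes, and 9 members had an unadjusted p under 0.05, beside 13.9% of all genes. The median log2 FC of the members was -0.19 (-0.058 with the processed signal and -0.34 without rabbit 1), where that of all genes was 0.058, and 19 of 32 values were below 0. Within a rabbit the median was -0.074, -0.14, -0.19 and -0.37, and within a slide -0.21 to -0.085. With the rabbit as a block, 3 members were called lower, beside 3.97% of all genes in the same fit: NOL10 (log2 FC -0.66, adjusted p = 0.0438), RRP12 (-0.70, 0.0477) and NOL12 (-0.63, 0.0414).

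RRP12 had levels of 3.40, 3.28, 2.17 and 2.94 after LPS at T4, all below its mock levels given above, with a 95% interval of -1.11 to -0.29 for the log2 FC. NOL10 had 1.93, 1.78, 1.39 and 1.45 against 2.32, 2.28, 2.47 and 2.10 in mock. For 6 members, NOL10, NOL12, PES1, POLR1H, RRP8 and RRP12, all LPS levels were below all mock levels, beside 5.04% of all genes. NPM1 and UTP20 were higher in 4 of 4 rabbits instead, NPM1 with 6.27, 6.15, 6.49 and 5.88 and a log2 FC of 0.52 (SE 0.19, limma adjusted p = 0.188). Rabbit 4 had the lowest LPS level for 18 of 32 members, and its array had the lowest share of spots well above background of all 24 (51.4%). Without that array and the array of PMA-Ionomycin T4 rabbit 2, a setting chosen after seeing the data, 0 members were called and the median was -0.18. Monocyte markers were lower for 3 of 11 in this comparison, with summed levels of 6.74 to 7.38 against 7.71 to 8.80 in mock, and their part in these values was not tested.

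At T24, 1 member was called lower after LPS and 0 higher, beside 0.582% and 0.637% of all genes, 2 members had an unadjusted p under 0.05, beside 10.8%, and the median log2 FC of the 32 members was 0.022 (all genes -0.031). The member called was NOPCHAP1, with 2.79, 3.08, 3.10 and 3.33 after LPS and 3.75, 3.64, 4.25 and 3.54 in mock. All 4 LPS cultures were below the lowest mock culture, and the log2 FC was -0.72 (SE 0.17, limma adjusted p = 0.0364). The call was lost without rabbit 1, 2 or 4, with the slide as a block and when only the arrays compared were fitted. RRP15 was lower in 4 of 4 rabbits too, with a log2 FC of -0.53 (SE 0.17, limma adjusted p = 0.164), and was not called. Of 11 monocyte markers, 0 were called higher and 2 lower in this comparison, CLEC7A (-2.65) and MPEG1 (-2.17, log2 FC), each well above background on 3 of 4 LPS arrays, and the summed level was 8.87 to 9.84 after LPS and 9.13 to 10.23 in mock. Of 7 neutrophil markers 1 was higher and 2 lower. Their part in the NOPCHAP1 value was not tested.

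The interaction of LPS and time was called for 0 of 32 members by limma, beside 1.71% of all genes with a positive and 0.239% with a negative value, while 11 members had an unadjusted p under 0.05, beside 16.3% of all genes. NOL10 had the smallest adjusted p, at 0.90 (SE 0.26, limma adjusted p = 0.0727), positive in 4 of 4 rabbits, and was called with the rabbit as a block (adjusted p = 0.043), as were 5.1% of all genes in the positive direction. NPM1 and NOPCHAP1 had negative values in 4 of 4 rabbits, -0.81 and -0.77, that did not pass (adjusted p = 0.115 and 0.0973).

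Set against LPS instead of mock, PMA-Ionomycin cultures had 29 members higher and 0 lower at T4 (median log2 FC 1.49), beside 17.7% and 9.04% of all genes, and 27 higher and 0 lower at T24 (median 1.50, or 0.997 under quantile normalisation and 0.98 with normexp), beside 23.6% and 12.5%. These comparisons share the PMA-Ionomycin cultures with those against mock. POLR1H did not differ between the stimulations beyond the error at T4, with -0.048 (95% interval -0.35 to 0.25), and was higher after PMA-Ionomycin at T24, by 1.14 (SE 0.15, limma adjusted p = 9.2e-07). NOL9 was called at T24 only with the rabbit as a block (adjusted p = 0.0316, against 0.138 without it), where 25% of all genes were called higher. Of the calls, 26 of 29 at T4 and 21 of 27 at T24 held under every one of the 14 alternatives, and all kept their sign. At T4, NOP9 was lost under 7 alternatives (the processed signal, the deposited table, only the arrays compared, without rabbit 1, 2 or 4, and without the 2 arrays of the lowest share of spots well above background), UTP3 under quantile normalisation, with normexp and with the processed signal, and UTP23 with the processed signal. At T24, NOL12, PES1, POLR1C, RRP8 and RRP9 were lost under quantile normalisation and with normexp, NOL12, RRP8 and POLR1A with the processed signal, NOL12 and RRP8 without rabbit 1, and RRP8 also without rabbit 4 and with the deposited table.

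In the same comparison, monocyte markers were higher for 2 and lower for 2 of 11 at T4 (median log2 FC 0.053) and higher for 0 and lower for 9 at T24 (-1.63), with summed levels of 6.40 to 7.19 after PMA-Ionomycin and 6.74 to 7.38 after LPS at T4, and of 6.58 to 7.28 and 8.87 to 9.84 at T24. B cell markers were higher for 1 and lower for 3 of 6 at T4 and higher for 1 and lower for 2 at T24, with summed levels of 6.67 to 7.47 and 6.99 to 8.63 at T4 and of 7.28 to 8.23 and 7.51 to 9.37 at T24. Neutrophil markers were lower for 5 of 7 at T24, platelet markers lower for 4 of 6 at T4, and all 17 cell cycle genes higher at T24. Among all genes, 17.7% were called higher and 9.04% lower at T4, and 23.6% and 12.5% at T24. The part of these markers and cell cycle genes in the difference was not tested.

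In mock-stimulated cultures few members were called between the times. From T4 to T24, 2 members were called higher and 1 lower, beside 7.41% and 5.14% of all genes, with a median log2 FC of -0.097 (all genes -0.065), which was -0.20 under quantile normalisation, -0.18 with normexp and -0.22 with the processed signal. NPM1 was higher at T24 by 0.58 (SE 0.19, limma adjusted p = 0.046) and NOPCHAP1 by 0.55 (SE 0.17, limma adjusted p = 0.0342), each in 4 of 4 rabbits. NOL10 was lower at T24, with a log2 FC of -0.63 (SE 0.18, limma adjusted p = 0.0231) and levels of 1.67, 1.57, 1.56 and 1.83, all below its T4 levels. Each of these 3 calls was lost under some alternative. Over the same time 8 of 11 monocyte markers were higher, 5 of 6 platelet markers lower and 13 of 17 cell cycle genes lower.

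Other genes of the pathway, from lists set out by role beside the module, were mostly called in the same direction. The shares of all genes called after PMA-Ionomycin were 13.4% higher and 9.35% lower at T4, and 22.1% and 11.5% at T24. After PMA-Ionomycin, 24 of 26 further genes of the small subunit processome and 40S maturation were called higher at T4 and 0 lower (median log2 FC 1.45), and 24 higher and 1 lower at T24 (1.32). Of 35 genes of 60S maturation and export, 33 were higher and 0 lower at T4 (1.43) and 25 higher and 1 lower at T24 (1.01), and of 22 snoRNP assembly and other nucleolar genes 13 were higher at T4 (0.83) and 16 at T24 (1.08), with 0 lower. BYSL, a factor of 40S maturation, had 2.67 and 1.74 at T4 and T24, NMD3, the export adaptor of the large subunit, 2.60 and 2.42, and RUVBL2, an ATPase of snoRNP assembly, 1.39 and 2.53. The genes called lower at T24 were RIOK3 (-0.83) and PELP1 (-1.25), the latter called higher at T4 (1.00).

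Among 7 factors of rRNA gene transcription, 5 were higher at T4 (median log2 FC 0.69) and 2 at T24 (0.067, but -0.079 with the deposited log2 table and -0.036 with the processed signal), with 0 lower. Of all genes, 13.4% were called higher at T4 and 22.1% at T24, so the count at T24 lay near the background. MYC, a transcription factor known to act on ribosome biogenesis genes, had levels of 5.19, 5.28, 5.48 and 5.97 after PMA-Ionomycin and 2.44, 2.16, 2.01 and 2.39 in mock at T4, a 9.37-fold rise, and rose 3.05-fold at T24. Its groups were far apart, with log2 FC of 3.23 (SE 0.19, limma adjusted p = 1.65e-11) and 1.61 (SE 0.19, limma adjusted p = 2.87e-07) and a change between times of -1.62 (SE 0.27, limma adjusted p = 7.58e-05). RRN3, the factor that recruits RNA polymerase I to the rRNA genes, had 0.69 (SE 0.14, limma adjusted p = 0.000403) at T4 and 0.067 (SE 0.14, limma adjusted p = 0.822) at T24, a change of -0.63 (SE 0.19, limma adjusted p = 0.0189). TAF1A, a subunit of the promoter selectivity factor, had 1.68 and 2.26. UBTF was not analysed here. After LPS at T24, MYC fell by 0.92 on the log2 scale (adjusted p = 0.0115).

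The genes for the proteins of the ribosome itself had smaller median changes at T4. Of 11 cytosolic ribosomal protein genes measured, 0 were called by limma at T4 (median log2 FC 0.23, 0 with an unadjusted p under 0.05) and 6 were higher at T24 (0.65). RPL3, 1 of the 11, was well above background on 0 of the 24 arrays, and the other 10 on all. Of 36 mitochondrial ribosomal protein genes 13 were higher and 2 lower at T4 (0.34) and 29 higher at T24 (1.26). For RNA polymerase II, 1 of 5 subunits was higher at T4 and 4 at T24, and for RNA polymerase III 3 of 7 were higher at each time and 1 lower at T24. Beside these counts, 13.4% of all genes were called higher and 9.35% lower at T4, and 22.1% and 11.5% at T24. Whether these lists differ from the module was not tested.

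**Figure D5:**
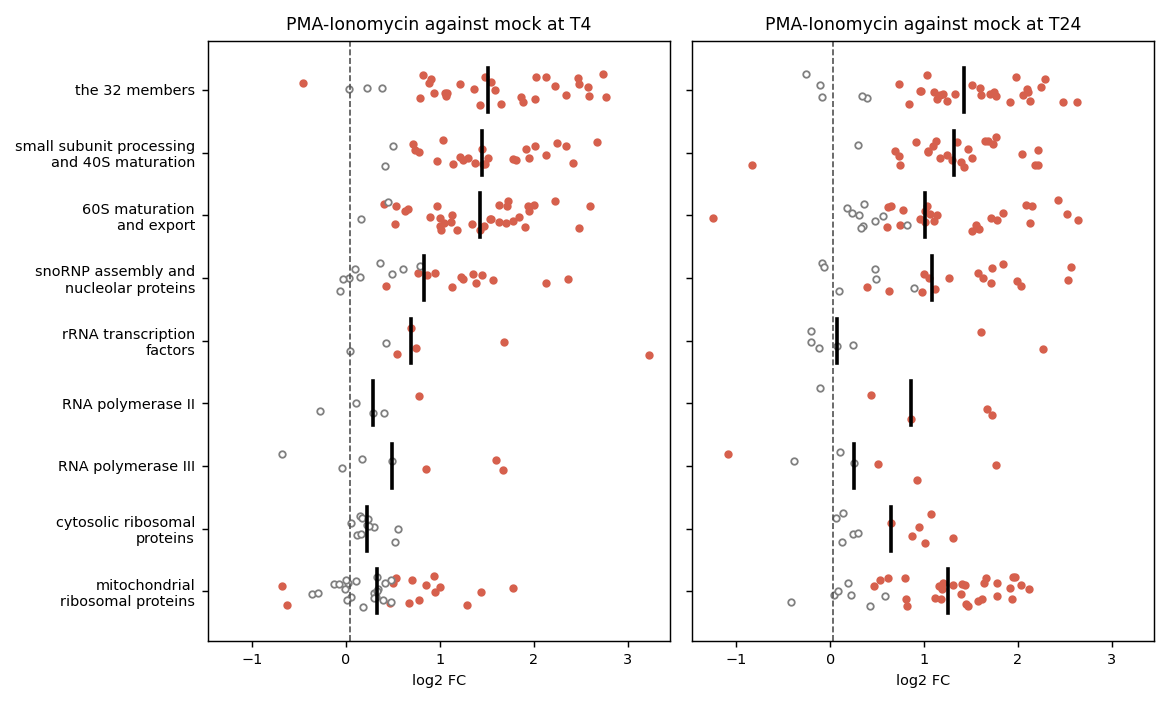
Points are genes, by list, with their log2 FC after PMA-Ionomycin against mock at T4 (left) and T24 (right), filled where the adjusted p was under 0.05. Black bars are list medians and the dashed line is the median of all genes. The lists of ribosome assembly lie to the right of the ribosomal protein genes at T4, with medians of 0.83 to 1.51 against 0.23 and 0.34. At T24 the median of the mitochondrial ribosomal protein genes is above those of the large subunit maturation and snoRNP assembly lists.

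The order of the rabbits was not the same in every group, and with 1 array per rabbit and group it was not tested. After PMA-Ionomycin at T4, rabbit 2 had the lowest level for 24 of 32 members, and its array had the second lowest share of spots well above background (52.6%). Without rabbit 2, 28 members were called at T4 and the median was 1.54. In LPS cultures at T24, rabbit 5 had the highest level for 28 of 32 members and rabbit 4 the lowest for 20. In mock cultures at T24 rabbit 5 was highest for 19. The probes of the 14 members with several probes agreed in sign after PMA-Ionomycin at both times, and their log2 FC differed by at most 0.21 at T4 and 0.28 at T24. For 7 of these 14 all probes overlap, so that they are no independent readings.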

How the data were processed

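RNA of 24 PBMC cultures was hybridised to single-dye custom rabbit arrays, and the deposited intensity values are the median, mean, local background and processed signals of each spot, as the authors extracted them with Agilent Feature Extraction (10.7.3.1). The deposited log2 table held the same median signals in log2, each array being shifted by its own mean (largest difference 5e-09 over probes with 1 spot). Its column medians ran from -1.11 to -0.811. No culture was pooled.

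Control spots and spots with an outlier mark were left out, the median signal was put on the log2 scale and centred on the array median over non-control spots, and spots of a probe and then probes of a gene were averaged. No background was subtracted, so differences of dim probes are compressed. Probes were named through the RefSeq table of mOryCun1.1 from the accession or gene number in the files, which gave 28890 genes, 9550 of them with a symbol. Of the members, 23 were named by accession and 9 by gene number.

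All 24 arrays entered 1 limma fit (3.58.1, R 4.3.3) with 6 group means, and p-values were adjusted by the Benjamini-Hochberg method over all genes. The number of arrays (4 per group) limits the precision. Same-numbered cultures came from the same rabbit, and after group means were subtracted, cultures correlated with a median of 0.228 over 60 pairs of the same rabbit and of -0.0745 over 180 pairs of different rabbits. Alternatives were a block for the rabbit, quantile normalisation, the processed signal scaled by its 75th percentile, normexp (offset 50), the deposited table, spots with outlier marks kept, dim probes left out, the slide as a block, only the arrays compared, each rabbit left out in turn, a log2 FC of at least 1 in size and, chosen after seeing the data, leaving out the 2 arrays of the lowest share of spots well above background. The fit was tested on simulated data for PMA-Ionomycin against mock at T4 (28776 genes, 200 changed): 17.9% of changes of 0.5, 86.6% of 1 and 100% of 2 log2 units were called, and 5.56% of calls were wrong. These shares hold for that setting only. Its noise was independent between arrays, without the correlation within a rabbit, and the data had far more calls (13.4% of genes higher and 9.35% lower).

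The members and the lists of other genes were chosen with earlier results of these data known. Genes named with full values were the RNA polymerase I subunits, the genes listed by name with their partners NOP56 and NOP58, NOL4 and NOL4L, MYC and RRN3, and in each comparison with mock the 5 largest rises and falls among called members that moved alike in 4 of 4 rabbits. Further members are named to account for all 32.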

Additional observations from a re-analysis of the deposited data

Results flagged for a closer look

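In 12 of 132 groups of 4 cultures (22 genes in 6 groups), 1 culture was far from the other 3, by the gap to its nearest neighbour as a share of the whole range (Dixon's test). Chance alone gives this in about 1 of 20 groups. In mock cultures at T24, rabbit 5 was the high one for NOLC1 (0.913), NOP56 (0.909), PES1 (0.891) and POLR1B (0.915). In mock cultures at T4 the share was 0.94 for NOP58, where rabbit 1 was high, and 0.836 for POLR1B. In LPS cultures at T4 it was 0.914 for NOL4L and 0.883 for WDR12. After PMA-Ionomycin it was 0.914 for NOL4, 0.892 for NOL4L and 0.862 for RRS1 at T4, and 0.831 for WDR12 at T24.

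The log2 FC after PMA-Ionomycin differed between T4 and T24 by the limma interaction test for 9 of 32 members (5 positive and 4 negative, beside 14.4% and 8.14% of all genes), of which 1, POLR1H, was called under every alternative. The difference was 1.59 for POLR1H, 1.03 for NOP58, 0.92 for UTP3, 0.88 for UTP20 and 0.72 for UTP23, all larger at T24. It was -1.26 for POLR1C, -1.23 for RRP9, -1.01 for NOLC1 and -0.91 for UTP25. Outside the module, it was -1.62 for MYC and -0.63 for RRN3 after PMA-Ionomycin, and -1.26 for MYC after LPS.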

How the results depend on the processing

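After PMA-Ionomycin, 26 of 29 members called at T4 and 25 of 27 called at T24 were called under each of 14 alternatives, and all of them kept their sign. The median log2 FC at T24 was 0.889 under quantile normalisation, 0.868 with normexp and 1.15 with the processed signal, and that of PMA-Ionomycin against LPS at T24 was 0.997 under quantile normalisation and 0.98 with normexp. With the processed signal the median of all genes was itself -0.156 at T4 and -0.258 at T24. For LPS against mock at T4 the median was -0.0582 with the processed signal and -0.335 to -0.145 with 1 rabbit left out, and 3 members were called with the rabbit as a block. For LPS at T24, 0 members were called when only the arrays compared were fitted, with the slide as a block or at a log2 FC of at least 1, and 0 to 1 with 1 rabbit left out. For mock T24 against mock T4 the median was -0.196 under quantile normalisation, -0.215 with the processed signal and -0.177 with normexp, and 1 member was called with the processed signal or with only the arrays compared, 0 at a log2 FC of at least 1, and 0 to 1 with 1 rabbit left out. The interaction of LPS and time was called for 1 member under quantile normalisation, with normexp and with the rabbit as a block. For PMA-Ionomycin and time the median was -0.426 with the processed signal, 5 members were called at a log2 FC of at least 1, and 1 to 7 with 1 rabbit left out. The rabbit as a block changed no other call named in the text than those given beside their results. The cause of these differences was not tested. Signals near background limit NOL4, NOL4L and POLR1A.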
